A study of Mus musculus with 9 samples.

Results

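The genes described here are the aminoacyl-tRNA synthetases of the mouse, the enzymes that load each transfer RNA with its amino acid. The 36 genes were taken from a list of synthetase symbols and found on the arrays by accession or by current or older symbol, and all 36 were among the 20862 genes tested. They comprise 18 genes whose enzymes work in the cytosol, 16 whose enzymes work in mitochondria, and Gars and Kars, each of which encodes the enzyme of both compartments and which are described apart. RNA came from lumbar (L3/L4) dorsal root ganglia (DRG), the ganglia that hold the cell bodies of the sensory neurons of the sciatic nerve. The groups were 5 injured samples (treatment lesion) and 4 uninjured samples (treatment control), all from adult mice labelled cre.neg and jun.wt, with no strain, sex or exact age given. The labels and the array methods give 3 days after sciatic nerve transection, the text on the same experiment gives 24 hr, a figure legend names nerve crush in place of transection, and the source label names transection for the control samples too. Each sample was hybridised as Cy5-labelled RNA against Cy3-labelled universal mouse reference RNA on a 2-colour array, with no dye swap. The samples were whole ganglia, in which neurons, satellite glia, Schwann cells, vessels and immune cells are mixed, so that fewer cells of a type and less RNA per cell cannot be told apart. The labels identify no animals, and p-values therefore measure the spread between these samples, which may be technical.

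A synthetase joins an amino acid to its transfer RNA at the expense of ATP, and the loaded transfer RNA is then handed to an elongation factor and to the ribosome. Mitochondria translate their own small set of messages with a separate set of synthetases, encoded in the nucleus and imported. Several cytosolic synthetases are held together in a multi-enzyme complex by scaffold proteins, and mutations in a number of them cause inherited neuropathies of peripheral axons. Genes of cytosolic synthetases are among the known targets of ATF4, the transcription factor made when the integrated stress response (ISR) is active.

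Values are log2 ratios of DRG over reference on each array, and only values of the same gene were set against each other. The share of spots above background in Cy5 ran from 71.0% to 78.9%, the median Cy5 intensity from 156 to 238, and no spot was saturated. The probes used for the 36 genes were above background on all 9 arrays. Of the 3 slides, the first holds uninjured 2, 3 and 4, the second holds uninjured 1 with injured 1, 2 and 5, and the third holds injured 3 and 4, so that slide is largely confounded with injury and a comparison within a slide rests on uninjured 1.

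Transcripts of cytosolic synthetases were higher after injury, led by those for alanine, isoleucine and cysteine. Of the 18 cytosolic genes, 8 rose and none fell at an adjusted p under 0.05, while 11.4% of all genes tested rose and 14.0% fell (25.4% in either direction). No cytosolic gene was lower at an unadjusted p under 0.05 either (0 of 18). The median log2 fold change of the 18 was 0.25, that of all genes was 0.0013, and 15 of the 18 were above 0. In 7 of the 18 genes every injured array lay above every uninjured array. How often the groups were apart in this way among all genes tested was not counted.

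Aars, the alanyl-tRNA synthetase, changed the most of the cytosolic genes. Its log2 ratio was −1.13, −0.61, −1.02 and −1.04 on uninjured arrays 1 to 4 and −0.02, −0.33, −0.61, −0.25 and 0.17 on injured arrays 1 to 5. The groups did not overlap, but uninjured 2 stood above the other uninjured arrays and came close to injured 3, the lowest injured array. Aars was 1.67-fold higher after injury, with a log2 fold change of 0.74 (95% interval 0.40 to 1.09, adjusted p = 0.00579). Its probe lies at chr8:109655652-109655710 (build mm7, plus strand).

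Iars, the isoleucyl-tRNA synthetase and a member of the multi-synthetase complex, read −0.24, −0.17, −0.35 and −0.32 on the uninjured arrays and 0.35, 0.35, 0.26, 0.35 and 0.11 on the injured arrays. Injured 1 to 4 sat close together and injured 5 lay below them, still above every uninjured array. The log2 fold change of Iars was 0.55 (95% interval 0.40 to 0.71, adjusted p = 0.000266), from a probe at chr13:49217836-49217895 (mm7, plus strand). Cars, the cysteinyl-tRNA synthetase, read −1.49, −1.43, −1.51 and −1.57 without injury and −0.95, −1.09, −1.09, −1.02 and −0.96 with it. Its groups were tight, with SDs of 0.06 and 0.07 around means of −1.50 and −1.02. The log2 fold change of Cars was 0.48 ± 0.06 (SE, adjusted p = 0.000208), or 1.39-fold.

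Lars, which charges leucine and also acts as a leucine sensor, read −0.56, −0.59, −0.55 and −0.67 on the uninjured and −0.26, −0.04, −0.11, −0.25 and −0.42 on the injured arrays, 1.30-fold higher (adjusted p = 0.00565). Wars, the tryptophanyl-tRNA synthetase, which interferon also induces, rose from 0.48, 0.50, 0.45 and 0.37 to 0.78, 0.68, 0.60, 0.68 and 0.90 (1.21-fold, adjusted p = 0.0136). In both genes the groups were apart, with injured 5 the lowest injured array for Lars and the highest for Wars. Sars, the seryl-tRNA synthetase, read −0.67, −0.56, −0.69 and −0.51 without injury and −0.41, −0.28, −0.45, −0.36 and −0.05 after it, a rise of 1.23-fold (adjusted p = 0.0275). Tars, the threonyl-tRNA synthetase, read −2.07, −2.26, −2.10 and −2.07 on uninjured and −1.79, −1.76, −1.81, −1.88 and −2.06 on injured arrays, a rise of 1.20-fold (adjusted p = 0.0262). For Tars the gap between injured 5 and the highest uninjured array was smaller than the rounding of these values. Yars, the tyrosyl-tRNA synthetase, read −0.36, −0.03, −0.44 and −0.47 on uninjured and 0.22, −0.03, −0.25, 0.23 and 0.26 on injured arrays. Its groups overlapped through uninjured 2 and injured 3, and its log2 fold change was 0.41 (95% interval 0.14 to 0.69, adjusted p = 0.0345).

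**Figure D1:**
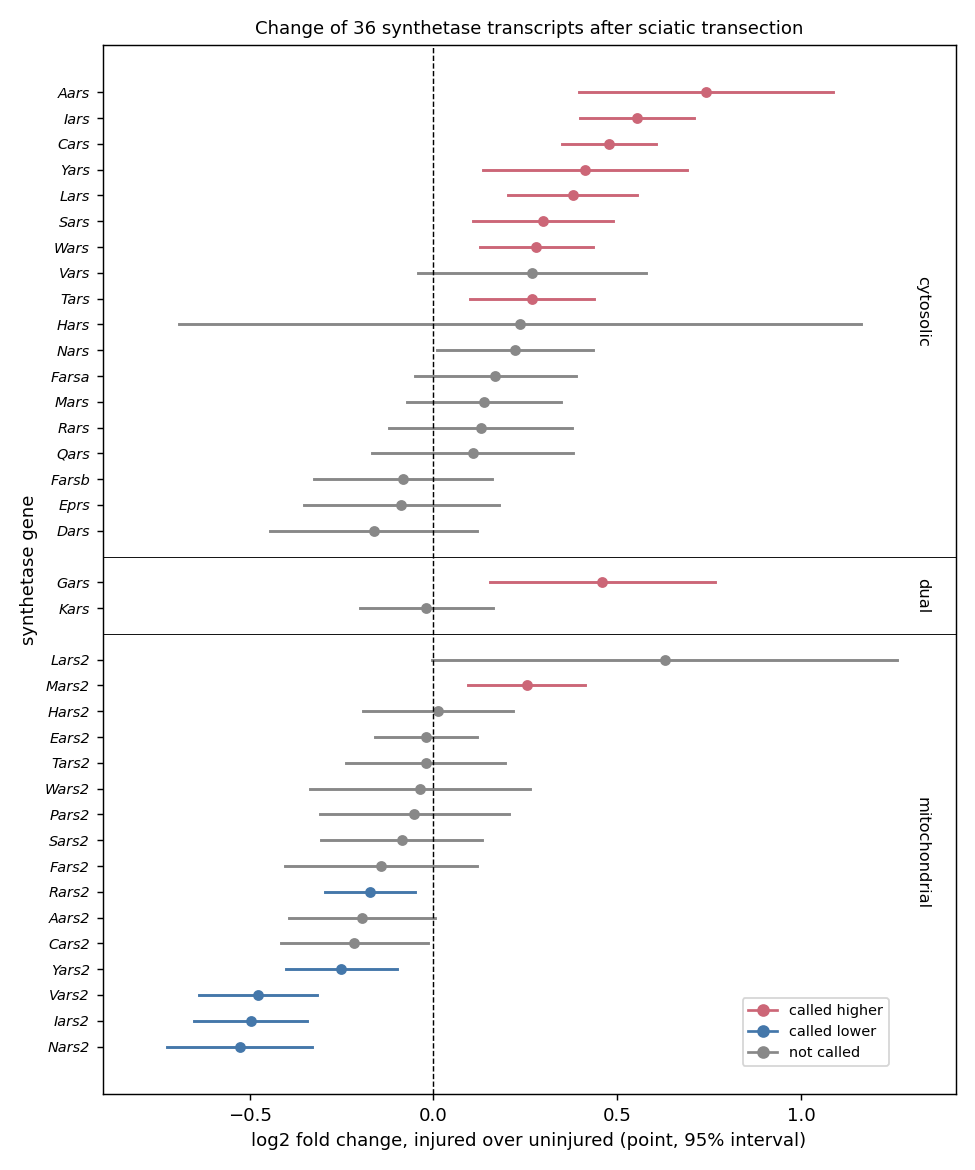
Log2 fold change of injured (n = 5) over uninjured (n = 4) arrays for each of the 36 synthetase genes, as a point with its 95% interval, in order of size within the cytosolic, dual and mitochondrial genes. Red points are genes called higher, blue points genes called lower and grey points genes past no threshold. Red points lie at the top of the cytosolic block and blue points at the bottom of the mitochondrial block, and the intervals of Hars and Lars2 are far wider than the rest.

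The other 10 cytosolic genes did not pass the test. The log2 fold change was 0.27 for Vars (valine), 0.24 for Hars (histidine), 0.22 for Nars (asparagine), 0.17 for Farsa (phenylalanine, catalytic subunit), 0.14 for Mars (methionine), 0.13 for Rars (arginine) and 0.11 for Qars (glutamine). It was −0.08 for Farsb, which encodes the partner subunit of Farsa, −0.09 for Eprs, the single protein that charges both glutamate and proline, and −0.16 for Dars (aspartate). Nars had the smallest adjusted p of these (0.122), and 4 of its 5 injured arrays lay above every uninjured array. For Vars 4 of 5 injured arrays did so too, yet its 95% interval ran from −0.04 to 0.58. Dars, the lowest of the cytosolic genes, read −1.18, −1.44, −1.15 and −1.09 on the uninjured and −1.20, −1.12, −1.31, −1.52 and −1.74 on the injured arrays, with the groups overlapping (adjusted p = 0.395). Hars could not be measured to a useful precision. It read 0.24, 0.84, 0.27 and −0.72 without injury and 0.52, 1.04, 1.01, 0.39 and −0.999 with it, with uninjured 4 and injured 5 far below the other arrays of their groups, and its 95% interval ran from −0.69 to 1.16.

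Gars and Kars, the genes that serve both compartments, differed in what was measured. Gars, the glycyl-tRNA synthetase, read −0.32, 0.05, −0.42 and −0.62 on the uninjured and 0.35, 0.08, −0.16, 0.28 and 0.09 on the injured arrays. It rose by 0.46 on the log2 scale (95% interval 0.15 to 0.77, adjusted p = 0.0335), with uninjured 2 inside the range of the injured arrays. Kars, the lysyl-tRNA synthetase, read −1.20, −1.14, −1.34 and −1.41 on the uninjured and −1.17, −1.37, −1.45, −1.18 and −1.27 on the injured arrays. Its groups covered nearly the same range, and the 95% interval of its log2 fold change was −0.20 to 0.16. The difference between Gars and Kars was not tested.

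Uninjured 2 read high, and injured 3 low, for several of these genes at once. Averaged over the 18 cytosolic genes as a deviation from the uninjured mean, the uninjured arrays lay at −0.02, 0.13, −0.02 and −0.09 and the injured arrays at 0.33, 0.28, 0.18, 0.24 and 0.19. The groups did not overlap in this average, and uninjured 2 came nearest to the injured arrays. For the 7 genes whose mutations are known in inherited neuropathy (Aars, Gars, Hars, Kars, Mars, Wars and Yars), the same average was 0.30 on uninjured 2 and 0.20 on injured 3, so that these groups overlapped. Of these 7 genes 4 rose and 0 fell, beside 11.4% and 14.0% of all genes, and their median log2 fold change was 0.28.

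The cytosolic and dual genes were also counted inside and outside the multi-synthetase complex. In the complex, 2 of 8 genes rose (Iars and Lars), and Qars, Mars, Rars, Kars, Eprs and Dars did not pass the threshold in either direction. Outside it, 7 of 12 rose, while 11.4% of all genes tested rose and 14.0% fell. The median log2 fold change was 0.12 inside the complex and 0.27 outside it, a difference that was not tested. The complex's 3 scaffold genes did not pass either, with log2 fold changes of −0.07 for Aimp1, 0.23 for Aimp2 (adjusted p = 0.0613) and −0.03 for Eef1e1. Split by the structural class of the catalytic domain, with Eprs left out because it holds a domain of each class, 5 of 9 class I and 4 of 10 class II genes of the cytosolic and dual enzymes rose, with medians of 0.28 and 0.23.

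The promoters of the cytosolic and dual genes that rose were searched for the letters of the C/EBP-ATF element, to which ATF4 binds with a partner of the C/EBP family. RefSeq promoter windows (build GRCm38.p6, from 250 bases before to 50 after the start site) were at hand for 27 of the 36 genes. The letters searched were TGATGNAA, or TTNCATCA for the same element on the other strand. Of the 6 cytosolic or dual genes that rose and had a window, 5 held them (Aars, Iars, Tars, Yars and Gars) and Sars did not. None of the 7 with a window that did not pass the test held them (Dars, Eprs, Farsa, Farsb, Kars, Mars and Qars), and none of the 14 mitochondrial genes with a window did. Cars, Lars and Wars, which rose, and Hars, Nars, Rars and Vars, which did not pass, had no window. The calls of Tars, Yars and Gars were each lost in 12 of 24 alternatives. Of all genes with a RefSeq window, 4.51% held the letters. The 5 windows are shown because they are the only ones of the 27 with these letters, with runs of 8 capitals marking the C/EBP-ATF letters and runs of 6 capitals marking an E-box (CACGTG):
Aars promoter, chr8:111033592-111033891 on the plus strand: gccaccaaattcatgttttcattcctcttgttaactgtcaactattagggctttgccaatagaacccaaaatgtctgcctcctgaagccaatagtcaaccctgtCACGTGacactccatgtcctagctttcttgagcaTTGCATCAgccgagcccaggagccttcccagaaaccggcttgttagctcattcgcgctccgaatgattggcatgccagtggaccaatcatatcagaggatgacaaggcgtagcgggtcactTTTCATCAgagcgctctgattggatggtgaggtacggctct
Iars promoter, chr13:49681880-49682179 on the plus strand: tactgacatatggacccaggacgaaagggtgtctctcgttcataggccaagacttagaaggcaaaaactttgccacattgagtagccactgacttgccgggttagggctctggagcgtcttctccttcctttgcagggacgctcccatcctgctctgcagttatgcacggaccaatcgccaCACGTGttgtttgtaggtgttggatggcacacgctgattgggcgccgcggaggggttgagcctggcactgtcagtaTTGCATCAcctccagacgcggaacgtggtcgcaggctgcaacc
Tars promoter, chr15:11399609-11399908 on the minus strand: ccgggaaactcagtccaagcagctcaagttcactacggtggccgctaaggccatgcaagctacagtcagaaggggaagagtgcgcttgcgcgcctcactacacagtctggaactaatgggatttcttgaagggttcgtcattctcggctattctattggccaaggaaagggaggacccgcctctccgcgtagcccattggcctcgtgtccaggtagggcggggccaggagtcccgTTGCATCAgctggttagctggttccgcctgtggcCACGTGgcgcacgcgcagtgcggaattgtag
Yars promoter, chr4:129189653-129189952 on the plus strand: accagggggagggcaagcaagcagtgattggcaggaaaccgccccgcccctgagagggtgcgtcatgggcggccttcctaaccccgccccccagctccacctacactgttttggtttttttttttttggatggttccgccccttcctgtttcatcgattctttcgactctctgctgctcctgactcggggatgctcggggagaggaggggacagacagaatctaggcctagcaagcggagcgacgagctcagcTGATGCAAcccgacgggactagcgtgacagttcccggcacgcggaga
Gars promoter, chr6:55037751-55038050 on the plus strand: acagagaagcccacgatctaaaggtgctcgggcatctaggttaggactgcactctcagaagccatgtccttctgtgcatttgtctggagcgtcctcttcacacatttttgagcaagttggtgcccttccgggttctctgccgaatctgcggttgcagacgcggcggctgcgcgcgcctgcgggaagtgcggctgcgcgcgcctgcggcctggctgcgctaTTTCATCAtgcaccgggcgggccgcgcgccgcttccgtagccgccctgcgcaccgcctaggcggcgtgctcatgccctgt

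Aars held the letters at −112 and again at 10, counted from the start site with no position 0. In Iars and Yars they began at 8 and 4, just inside the transcript, and in Tars and Gars at −15 and −30. The exact letters TTGCATCA, or TGATGCAA on the other strand, stood in Aars, Iars, Tars and Yars, and Gars and the second site of Aars had TTTCATCA. The same search found TTGCATCA in the windows of Chac1 and Atf3 and nothing in those of Atf4 and Ddit3. An E-box lay in 5 of the 27 windows (Aars, Iars, Tars, Farsb and Ears2) against 8.09% of all genes, and the cyclic AMP response element TGACGTCA lay in 0 of the 27 against 2.03%. A match of letters is a description of these windows and not a measurement of binding.

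Among the mitochondrial synthetases more genes fell than rose. Of the 16 genes 5 fell and 1 rose, beside the 14.0% of all genes that fell and the 11.4% that rose. In all 5 that fell every injured array lay below every uninjured array, a separation not counted over all genes. The median log2 fold change of the 16 was −0.12, and 13 of them were below 0. Averaged over the 16 genes as a deviation from the uninjured mean, the uninjured arrays lay at −0.01, 0.03, −0.05 and 0.02 and the injured arrays at −0.13, −0.20, −0.14, −0.10 and 0.01. Injured 5 alone lay within the uninjured range in this average.

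Nars2, the mitochondrial asparaginyl-tRNA synthetase, fell the most. It read −0.37, −0.55, −0.38 and −0.43 on the uninjured and −0.84, −0.90, −0.79, −1.07 and −1.20 on the injured arrays, which was 1.44-fold lower (log2 fold change −0.53, 95% interval −0.72 to −0.33, adjusted p = 0.00163). Its probe, at chr7:93094282-93094341 (mm7, plus strand), was dim, with a mean Cy5 intensity of 301. Iars2, the mitochondrial isoleucyl-tRNA synthetase, read 0.29, 0.27, 0.31 and 0.28 without injury and −0.06, −0.17, −0.16, −0.27 and −0.39 after it. The uninjured arrays agreed within 0.02 (SD), and Iars2 was 1.41-fold lower after injury (adjusted p = 0.00052). Vars2, for valine, read 0.35, 0.41, 0.29 and 0.49 on the uninjured and −0.14, −0.23, −0.05, −0.12 and 0.07 on the injured arrays, a log2 fold change of −0.48 (95% interval −0.64 to −0.32, adjusted p = 0.000845). In these 3 genes the groups were apart by more than the range within the uninjured arrays.

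Yars2, for tyrosine, read 0.09, −0.06, 0.02 and 0.18 without injury and −0.11, −0.17, −0.15, −0.18 and −0.33 with it, 1.19-fold lower (adjusted p = 0.0217). Rars2, for arginine, read −0.17, −0.08, −0.22 and −0.19 without injury and −0.27, −0.37, −0.29, −0.36 and −0.40 with it, 1.13-fold lower (adjusted p = 0.0442). These were the smallest falls past the threshold, and their groups came close to touching. Mars2, for methionine, was the only mitochondrial gene that rose. It read −0.63, −0.83, −0.75 and −0.77 on the uninjured and −0.50, −0.44, −0.36, −0.48 and −0.66 on the injured arrays, 1.19-fold higher (adjusted p = 0.025), with injured 5 inside the uninjured range.

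Lars2, for leucine, had the highest log2 fold change of the mitochondrial genes at 0.63 and did not pass the test (95% interval −0.00 to 1.26, adjusted p = 0.138). It was at 0.39 without injured 5, at 0.82 without injured 1, where it passed, and at 0.09 from Cy5 alone, below Mars2 at 0.17. It also passed with slide as a random block (0.63). It read 1.72, 1.75, 1.47 and 1.84 on the uninjured arrays and 1.56, 1.92, 2.24, 2.63 and 3.28 on the injured arrays. The injured arrays spanned a range of which injured 1 lay within the uninjured arrays and injured 5 far above them, with SDs of 0.16 without and 0.66 with injury. The mean Cy5 intensity of its only probe was 536367, far above that of any other synthetase, of which Sars was the next at 27063. Whether all of this signal came from Lars2 transcripts was not tested. The other 9 mitochondrial genes did not pass either, with log2 fold changes of −0.22 for Cars2, −0.19 for Aars2, −0.14 for Fars2, −0.09 for Sars2, −0.05 for Pars2, −0.04 for Wars2, −0.02 for both Tars2 and Ears2, and 0.01 for Hars2. In Aars2 4 of 5 injured arrays lay below every uninjured array. The 95% interval was −0.16 to 0.12 for Ears2 and −0.19 to 0.22 for Hars2.

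**Figure D2:**
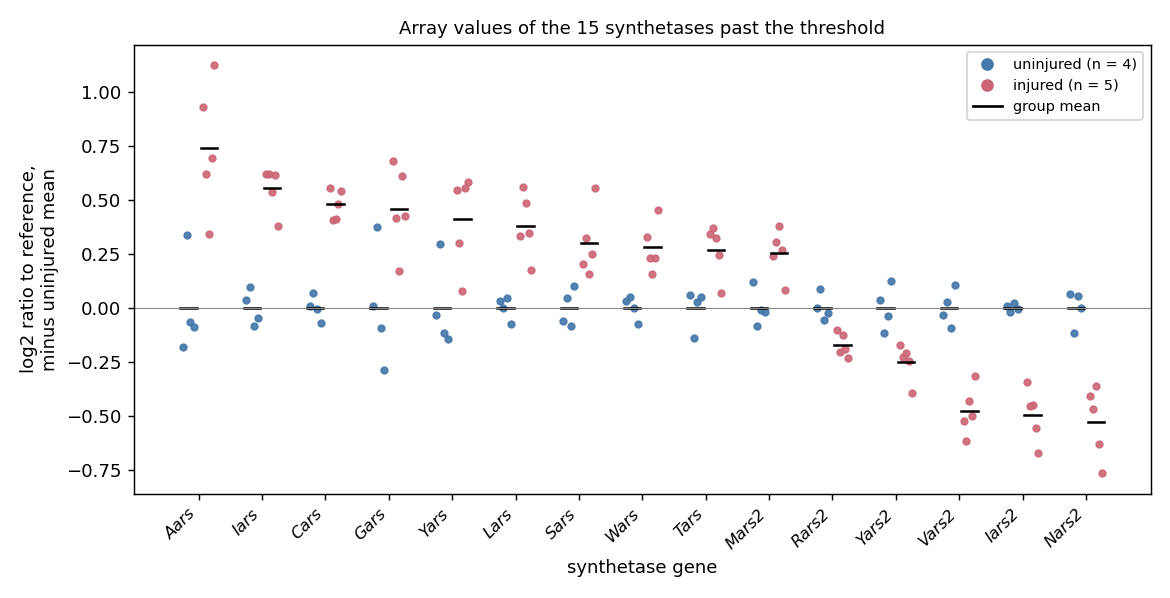
Log2 ratio to the reference, minus the mean of the uninjured arrays, on each array for the 15 synthetase genes past the threshold, with uninjured arrays (n = 4) in blue, injured arrays (n = 5) in red and the group means as black bars. In 12 of the 15 genes the colours do not overlap, and in Gars, Yars and Mars2 they do. The genes were chosen by the test, and such separation was not counted over all genes.

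Cytosolic and mitochondrial enzymes for the same amino acid were then compared within each array, as the log2 ratio of the cytosolic gene minus that of its mitochondrial partner. A shift of a whole array cancels in this difference. There were 16 such pairs, each given a two-sided exact permutation test over every split of 9 arrays into 4 and 5 (smallest possible p = 0.00794) and adjusted over the 16 pairs by Benjamini-Hochberg. In 12 pairs the change of the cytosolic gene was above that of the mitochondrial gene, and in 9 the difference passed an adjusted p of 0.05, each of them with the cytosolic gene higher. In 7 of the 9 every injured array lay above every uninjured array. The smallest p, reached by 6 pairs, requires such a separation, so this count adds no evidence beyond the test.

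The isoleucine pair differed most. Its difference (Iars minus Iars2) ran from −0.66 to −0.44 on the uninjured and from 0.41 to 0.62 on the injured arrays, a shift of 1.05 (95% interval 0.91 to 1.19, exact permutation p = 0.00794, adjusted p = 0.0212). The alanine pair shifted by 0.94 (95% interval 0.66 to 1.21, adjusted p = 0.0212, exact permutation), from a range of −2.39 to −2.02 to a range of −1.60 to −1.13. Shifts of the remaining pairs past the threshold were 0.75 for asparagine, 0.75 for valine, 0.69 for cysteine, 0.66 for tyrosine, 0.38 for serine, 0.31 for phenylalanine (Farsa against Fars2) and 0.30 for arginine. The phenylalanine and serine pairs passed although none of Farsa, Fars2 and Sars2 did so alone. Tryptophan (0.32, adjusted p = 0.152, exact permutation) and threonine (0.29, adjusted p = 0.185, exact permutation) shifted by similar amounts and did not pass. The 4 pairs below 0 were leucine (−0.25, 95% interval −1.19 to 0.69), methionine (−0.12, −0.50 to 0.26) and Eprs against Ears2 and Pars2 (−0.07 and −0.04), which share Eprs. The histidine pair, at 0.22, had a 95% interval of −0.82 to 1.27.

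**Figure D3:**
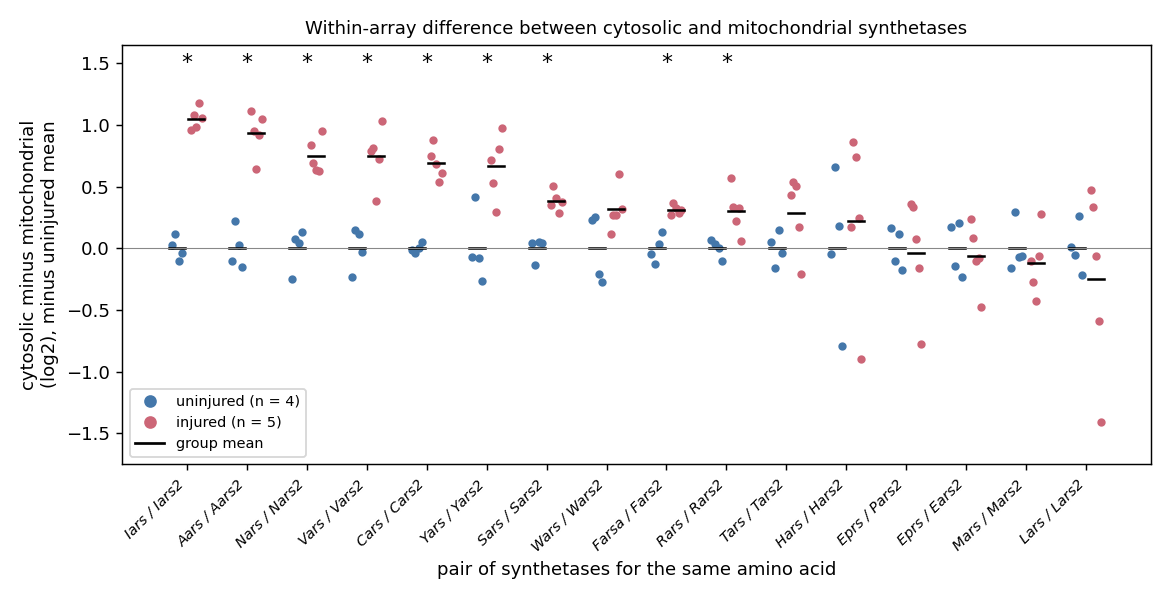
Difference between the cytosolic and the mitochondrial synthetase of each amino acid on each array (log2, minus the mean of the uninjured arrays), with uninjured arrays (n = 4) in blue, injured arrays (n = 5) in red, group means as black bars and an asterisk at the 9 pairs with an adjusted p under 0.05 (exact permutation). The shift falls from 1.05 for Iars and Iars2 to −0.25 for Lars and Lars2, whose injured arrays are widely spread.

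Genes that work beside the synthetases were read from a list of 27 partners. Of these 6 fell and 2 rose, with a median log2 fold change of −0.07, beside the 14.0% of all genes that fell and the 11.4% that rose. In either direction 8 of the 27 passed, beside 25.4% of all genes, so that the count was close to that share. Whether any route was over-represented among them was not tested. With slide as a fixed block 2 of the 27 passed, Qrsl1 (lower) and Eef1b2 (higher). Under that slide model 3.02% of all genes rose and 2.63% fell. Of the 6 that fell as reported, 3 belong to routes that finish a transfer RNA after it has been loaded. Pstk, the kinase on the route to selenocysteine transfer RNA, fell by 0.53 on the log2 scale (adjusted p = 0.00206), and Sepsecs, which completes that route, fell by 0.29 (adjusted p = 0.0387). Qrsl1, a subunit of the mitochondrial amidotransferase that makes glutamine transfer RNA, fell by 0.39 (adjusted p = 0.00135), from 1.78, 1.72, 1.62 and 1.77 to 1.31, 1.20, 1.38, 1.41 and 1.38. The other subunits, Gatb and Gatc, were at −0.06 and −0.17 and did not pass. Dtd1, which removes D-amino acids from transfer RNA and carries the name Hars2 on the array, fell by 0.40 (adjusted p = 0.00304), and Ptrh2, a peptidyl-tRNA hydrolase, fell by 0.28 (adjusted p = 0.0192).

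The 2 partners that rose, a smaller share than the 11.4% of all genes, encode subunits of elongation factor 1. This factor receives the loaded transfer RNA. Eef1b2, its nucleotide exchange subunit, rose by 0.74 on the log2 scale (adjusted p = 3.5e-05), from between −2.08 and −1.88 on the uninjured to between −1.36 and −1.10 on the injured arrays. Eef1g rose by 0.18 (adjusted p = 0.0355). Eef1a1 (0.25, adjusted p = 0.0848) and Eef1d (0.19, adjusted p = 0.0765) did not pass the threshold. The mitochondrial elongation factors Tufm and Tsfm were at −0.13 and −0.30 and did not pass either.

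Transcripts of Atf4 and of other injury and stress genes were higher on the same arrays. Atf4 transcripts rose by 0.58 on the log2 scale (95% interval 0.43 to 0.74), with the uninjured arrays between −1.85 and −1.67 and the injured arrays between −1.32 and −1.04. With slide as a fixed block Atf4 did not pass (0.51, adjusted p = 0.0692), while Atf3, Chac1 and Ddit3 did. Chac1, a glutathione-degrading enzyme, rose by 1.98, and Ddit3, a transcription factor of the stress response, by 0.70. In the paper's qPCR of DRG after nerve crush, the rise of Chac1 depended at least partly on ATF4, and that of Ddit3 did not. Atf3, a marker of axonal injury in sensory neurons, rose by 5.14, and its values lay between −1.09 and −0.90 without and between 4.03 and 4.25 with injury. No synthetase had a log2 fold change near those of Chac1 and Atf3.

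Markers of other cell types also moved. Of 10 macrophage markers all were above 0 and 2 passed (Aif1 0.90 and Itgam 0.50), and of the neutrophil markers Mpo passed (1.49). The marker counts stand beside 11.4% of all genes that rose and 14.0% that fell, and several are near these shares. The average macrophage marker level, as a deviation from the uninjured mean, was −0.41 to 0.38 on the uninjured and 0.09 to 1.01 on the injured arrays, and that of 6 skeletal muscle markers was −0.06 to 0.10 on the uninjured and −0.07 to 3.67 on the injured arrays, high on injured 2 and 4. Of the 10 sensory neuron markers Isl1 fell (−0.49) and 9 did not pass, with a median of −0.04. Glul, a marker of satellite glia, rose by 0.78 and Tek, an endothelial marker, by 0.47, each the only gene of its 5 to pass. None of the 6 skeletal muscle, 6 lymphocyte, 4 red blood cell, 6 myelinating Schwann cell, 5 fibroblast and 6 dividing cell markers tested passed, with median log2 fold changes of 1.17, 0.13, 0.71, 0.19, 0.30 and 0.22 in that order. At an unadjusted p under 0.05 in limma, 7 macrophage, 3 neutrophil, 3 red blood cell, 2 Schwann cell, 2 endothelial, 1 satellite glia and 1 muscle marker were higher, and 3 of the 10 sensory neuron markers were lower. The share of all genes past that unadjusted threshold was not counted, so these counts have no background to be read against. Injured 1, with a macrophage level of 0.09 and a muscle level of −0.07, had the highest average over the cytosolic synthetases (0.33). Its average over the mitochondrial ones was −0.13. Injured 3, with a macrophage level of 0.31 and a muscle level of −0.07, had the lowest cytosolic average of the injured arrays (0.18). Its mitochondrial average was −0.14. Injured 2, 4 and 5 had macrophage levels of 0.97, 0.46 and 1.01 and muscle levels of 2.19, 3.67 and 0.35. Their cytosolic averages were 0.28, 0.24 and 0.19, and their mitochondrial averages −0.20, −0.10 and 0.01. Without injured 2 and 4, which was tried after these levels had been seen, the medians were 0.27 for the cytosolic and −0.09 for the mitochondrial genes. The counts there were 5 of 18 higher and 3 of 16 lower, beside 6.56% of all genes higher and 7.87% lower. The part of other cell types in any of these values was not tested.

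Where a gene had several probes that passed the filter, they were compared. Of the 15 genes past the threshold 10 had more than 1 such probe, and in all 10 every probe had the same sign of change. The size differed. The other probes of Aars gave log2 fold changes from 0.16 to 0.86 beside 0.74, those of Iars 0.34 to 0.54 beside 0.55, and those of Cars 0.45 to 0.54 beside 0.48. For Iars2 they gave −0.18 to −0.01 beside −0.50, for Nars2 −0.20 beside −0.53, for Tars 0.08 beside 0.27 and for Yars2 −0.03 beside −0.25. Gars, Sars, Yars, Mars2 and Rars2 rest on a single probe.

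The counts depend on how the arrays are scaled and on the slide. With each array centred on its median in place of loess, 1 of the 18 cytosolic genes rose (Aars). That count was close to the 4.70% of all genes that rose under this scaling. Of the 16 mitochondrial genes 3 fell (Iars2, Nars2 and Vars2), beside 8.03% of all genes. The medians were 0.14 and −0.20 beside −0.05 over all genes, and 9 pairs passed. With slide as a block, which leaves uninjured 1 against injured 1, 2 and 5, 2 cytosolic genes rose (Aars, log2 fold change 1.07, adjusted p = 0.0388, and Cars, 0.49, adjusted p = 0.0418) and no mitochondrial gene fell in limma's test, while 3 fell at an unadjusted p under 0.05. Under that slide model 3.02% of all genes rose and 2.63% fell, and the share that fell unadjusted was not counted. The cytosolic median there was 0.31 and the mitochondrial median −0.06, beside −0.006 over all genes. Leaving out uninjured 3 lowered the cytosolic count to 5, beside 9.15% of all genes that rose. Leaving out uninjured 1 or uninjured 4 lowered the mitochondrial count to 3, beside 10.4% and 11.3% of all genes that fell. The calls of Aars, Iars, Cars, Lars, Wars, Nars2, Iars2 and Vars2 remained with each array left out in turn. Those of Yars, Gars, Sars, Tars, Mars2, Yars2 and Rars2 were lost without at least 1 array, with adjusted p up to 0.106.

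**Figure D4:**
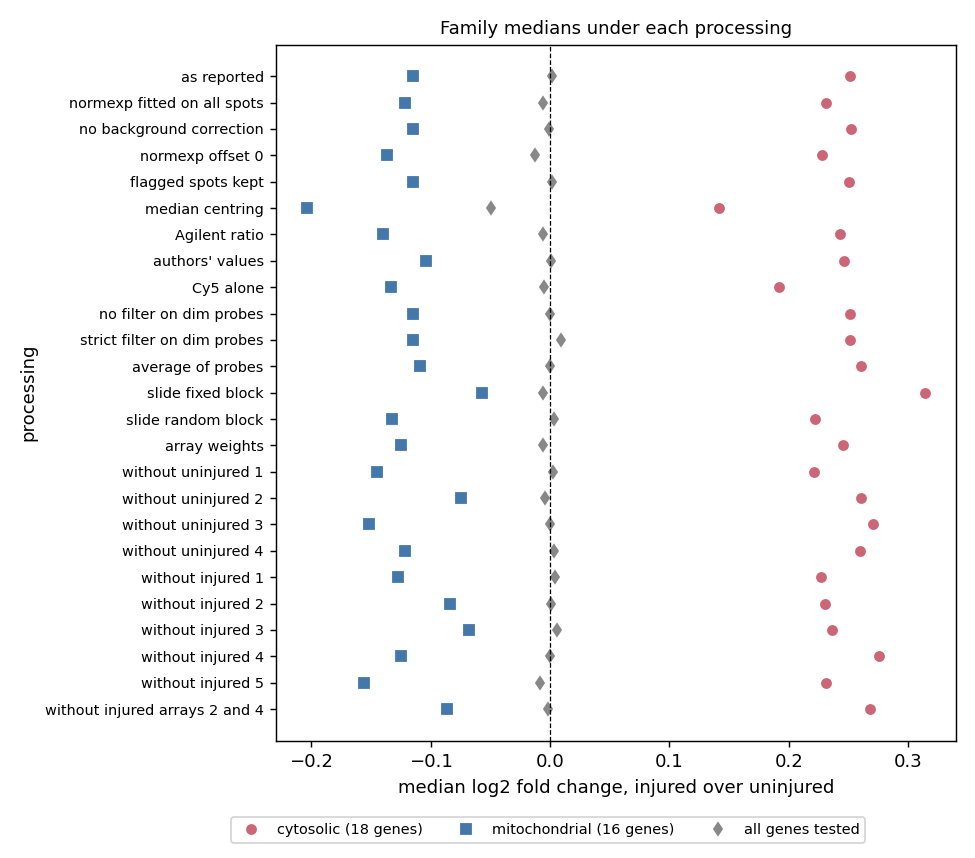
Median log2 fold change of the 18 cytosolic genes (red circles), the 16 mitochondrial genes (blue squares) and all genes tested (grey diamonds) as reported and under each other processing, including each array left out. The cytosolic median stays above and the mitochondrial median below 0 in every one, at 0.14 to 0.31 and −0.20 to −0.06, and median centring moves all 3 to the left.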

How the data were processed

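The samples were 9 DRG RNA preparations on 2-colour Agilent arrays. The deposited scanner files hold, for each channel, the mean intensity of a spot and the median intensity of its surroundings, extracted with Agilent Feature Extraction 10.5.1.1. That program also wrote, per the file headers, log10 ratios with background and dye corrected, used as an alternative. The log2 ratios that the authors deposited as processed values are Cy5 over Cy3, normalized within each array, and the submitters' processing notes name limma.

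Starting from intensities, R 4.3.3 and limma 3.58.1 were used for normexp background correction (offset 50, fitted without spots of non-uniform local background), loess within arrays, and the average of repeated spots. These values correlated with the authors' at 0.9995 or above on every array. Kept were probes whose Cy5 signal exceeded background on 4 or more of 9 arrays (31186 of 41174), and the brightest probe stood for each gene. Array names can be out of date: the probe named Vars2 matches Vars, and that named Hars2 matches Dtd1. Probes were matched first by accession (22951), then by current (7748) or older (2081) symbol, to RefSeq names, and 8394 kept their own. Probe coordinates are those of the files, on build mm7.

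Each gene was tested for injured against uninjured with limma (lmFit and eBayes) on unpaired samples, and p was adjusted over all genes by Benjamini-Hochberg. The script was tested on simulated data. Precision is limited by the number of arrays. The members, gene lists, motifs and naming rule (all 36 genes, with every array's value for those past the threshold and for the ends of each family) were chosen with earlier results of these data known. Lists besides the synthetases were partner genes, injury and stress genes, and markers of sensory neurons, macrophages, lymphocytes, neutrophils, red blood cells, skeletal muscle, Schwann cells, satellite glia, fibroblasts, endothelium and dividing cells. A partner gene counted in its list is not reported here. Alternatives were other background corrections, scalings, filters, probe rules and slide models, Agilent's ratio, the authors' values, the Cy5 channel alone, array weights and leaving out each array. Figures used Python 3.11.15 and matplotlib 3.10.9.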

Additional observations from a re-analysis of the deposited data

Results flagged for a closer look

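In 4 of 76 groups of arrays examined (each synthetase and both family averages, injured and uninjured), a single array stood apart from the rest of its group. Chance alone gives such a gap in about 1 of 20 groups. In 3 of the 4 the array was uninjured 2. Its log2 ratio for Mars was −1.38 (next −1.63), for Fars2 0.25 (next −0.11), both the highest of the uninjured arrays, and for Tars −2.26 (next −2.10), the lowest. The other was Farsb on injured 5, at −0.30 against 0.03 on the next injured array.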

How the results depend on the processing

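No paired analysis was possible because animals are not identified and no label numbers the replicates. The number of arrays and the slides limit these results, since only uninjured 1 shares a slide with injured arrays. Of the 15 synthetases past the threshold, all kept their direction in all 24 alternatives, and Aars alone kept its call in each. The 18 cytosolic genes had 8 called higher as reported, 5 with a normexp offset of 0 or with Cy5 alone, 1 with median centring, 2 with slide as a fixed block and 5 without injured arrays 2 and 4. The 16 mitochondrial genes had 5 called lower as reported, 3 with median centring, Cy5 alone or without injured arrays 2 and 4, and 0 with the fixed slide block (3 at an unadjusted p under 0.05 in limma). Partner genes called numbered 8 as reported, 3 with median centring, 2 with the fixed slide block, 17 with slide as a random block, 13 with array weights and 4 without injured arrays 2 and 4. With each array left out, the counts ran from 5 to 7 (cytosolic, lowest without uninjured 3), 3 to 5 (mitochondrial, lowest without uninjured 1 or 4) and 4 to 8 (partners, 4 without uninjured 1 and 5 without uninjured 3). Median centring gave family medians of 0.14 and −0.20. Of all genes 9.49% rose with an offset of 0 and 9.70% with Cy5 alone, where 13.3% fell. In every alternative the cytosolic median stayed above 0 and the mitochondrial median below it. Over all genes, 5309 were called as reported, 2656 with median centring and 1178 with the fixed slide block.

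Pairs past the threshold numbered 9 as reported and 0 to 8 with an array left out. The count was 0 without any injured array, and 0 without injured arrays 2 and 4, where the smallest possible p was 0.0286 and at least 10 pairs at that p are needed to pass, so these counts say nothing about stability. The exact test of pairs was not run with slide blocks or array weights, which it cannot take.

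Changes of sign occurred among 10 genes that did not pass the test. The values with the changed sign were close to 0, apart from those of Hars2 and Wars2 with the fixed slide block. With the fixed slide block the log2 fold change was −0.0499 for Hars, −0.145 for Hars2, 0.0583 for Sars2 and 0.30 for Wars2. Wars2 was at 0.0765 without injured arrays 2 and 4. Kars was at 0.0288 with Cy5 alone and 0.00153 with the random slide block, Qars at −0.00341 with median centring, and Ears2 at 0.0162 with normexp fitted on all spots and 0.00240 with array weights. Hars2 was at −0.00748 with normexp fitted on all spots, −0.00106 with an offset of 0, −0.0170 with median centring and −0.0379 with Cy5 alone. With each array left out, the ranges were −0.15 to 0.00011 for Eprs, −0.0562 to 0.583 for Hars, −0.0636 to 0.0255 for Kars, −0.0704 to 0.0171 for Ears2, −0.0334 to 0.0799 for Hars2, −0.150 to 0.00376 for Pars2, −0.0945 to 0.0195 for Tars2 and −0.104 to 0.0479 for Wars2. The cause of these changes was not tested.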
